A study of Mus musculus with 9 samples.

Results

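Excitation-contraction coupling is the chain of steps by which an action potential on a skeletal muscle fibre opens a calcium store and makes the fibre contract. The 40 genes described here encode its channels, pumps, store proteins, calcium buffers, kinases and membrane scaffolds. They were taken by symbol from a table of 17314 genes measured by RNA sequencing in mouse gastrocnemius, a calf muscle that moves the ankle and consists largely of fast fibres. All 40 symbols were found, and all 40 were among the 13044 genes that passed a filter on low counts. The mice were 6, 15 and 21 months old, with 3 mice and 1 library per mouse at each age. The labels and the design text give tissue and age, and they name no transgene or treatment. The labels do not state strain or sex.

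In a resting fibre the sarcoplasmic reticulum holds calcium behind closed ryanodine receptors. An action potential runs down the T-tubule, and the dihydropyridine receptor in that membrane senses the voltage and opens the ryanodine receptor by direct contact at the triad, the junction of T-tubule and reticulum. Calcium then binds troponin, and the SERCA pump returns it to the store, where calsequestrin binds it. Parvalbumin buffers calcium in the cytosol of fast fibres, and STIM and ORAI proteins let calcium in from outside when the store is depleted.

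The promoters of Atp2a1, Pvalb and Casq1, the members with the highest levels per exon length, are shown because they head the pump, the buffer and the store. The sequences are RefSeq windows on GRCm38.p6, the assembly otherwise named mm10, read 5' to 3' on the minus strand up to the start site. They lie at chr7:126463109-126463323 for Atp2a1, chr15:78206401-78206650 for Pvalb and chr1:172219896-172220145 for Casq1. The Atp2a1 window leaves out the 35 bases nearest the RefSeq start site, which GENCODE places inside the gene. Capitals mark matches on either strand to CAGCTG or CACCTG, which are E-boxes of the kind that myogenic factors bind, to AGGTCA, the half-site of nuclear receptors, and to the MEF2 consensus.
Atp2a1: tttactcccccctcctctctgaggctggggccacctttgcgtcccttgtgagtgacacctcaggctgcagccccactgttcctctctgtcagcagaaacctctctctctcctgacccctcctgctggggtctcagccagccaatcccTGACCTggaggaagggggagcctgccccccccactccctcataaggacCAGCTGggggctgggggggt
Pvalb: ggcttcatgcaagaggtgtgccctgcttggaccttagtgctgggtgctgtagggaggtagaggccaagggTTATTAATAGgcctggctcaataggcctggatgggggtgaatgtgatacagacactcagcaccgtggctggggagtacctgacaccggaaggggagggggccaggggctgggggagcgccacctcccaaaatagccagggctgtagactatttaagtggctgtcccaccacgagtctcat
Casq1: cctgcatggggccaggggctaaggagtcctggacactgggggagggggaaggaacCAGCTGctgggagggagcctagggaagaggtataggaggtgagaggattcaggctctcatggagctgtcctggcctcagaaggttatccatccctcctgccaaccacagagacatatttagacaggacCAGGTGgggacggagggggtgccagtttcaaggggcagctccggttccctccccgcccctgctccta
Atp2a1 held AGGTCA, printed as TGACCT on this strand, and CAGCTG. Pvalb held the MEF2 consensus, and Casq1 held CAGCTG and CACCTG, printed as CAGGTG. RefSeq windows of 250 bases before the start site were matched for 25 of the 40 genes, in 32 windows. CAGCTG lay in 9 of these 32 windows (28.1%), against 13% of all 32851 windows. AGGTCA lay in 7 (21.9%, against 14% of all), CACCTG in 3 (9.38%, against 17.2% of all) and the MEF2 consensus in 2 (6.25%, against 2.92% of all). These motifs do not overlap each other in the printed sequences. The matches describe letters only, and several windows belong to the same gene. Overlapping windows of Jph2 hold the same CAGCTG and AGGTCA sites, and those of Mtm1 hold the same AGGTCA site. Each such site is counted in every window that holds it.

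Total counts were 15354396 to 17317856 per library, and the coefficient of variation between mice of the same age was 0.164 in the edgeR fit. Levels are given as CPM, the usual depth-scaled count unit, here with TMM factors. Fast fibre markers were high in every library, with a summed level of 114985 to 167066 CPM over 9 genes. Slow fibre markers differed widely within each age. Their summed level over 10 genes was 110 to 337 CPM at 6 months, 413 to 1303 CPM at 15 months and 290.0 to 1184 CPM at 21 months. Cardiac markers were low, at 1.29 to 5.45 CPM over 6 genes, of which 2 passed the filter. Mouse 2 at 6 months, mouse 1 at 15 months and mouse 3 at 21 months lay farthest out on the first principal component (35.2% of the variance). Counts are therefore also given without these 3 libraries, an alternative chosen after seeing the data.

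The calcium handling genes covered a wide range of levels. Levels between genes are compared here as CPM per kilobase of exon, averaged over 9 mice. The length is the union of all annotated exons of a gene, not that of its transcripts in muscle. The order of the genes therefore depends partly on the annotation. Atp2a1, which encodes the SERCA pump of fast fibres, stood at 6840.4 CPM per kilobase and Pvalb, which encodes parvalbumin, at 6595. Casq1, which encodes the calsequestrin of fast fibres, followed at 1128 and Tmem38a, which encodes a potassium channel of the reticulum, at 663. The voltage sensor subunit gene Cacna1s (161) and the release channel gene Ryr1 (126) lay in the middle of the range, with Jph2 (125) and Stac3 (129) close by. Store-operated entry genes were lower, with Stim1 at 24.6, Stim2 at 17, Orai1 at 13.2 and Orai3 at 6.95 CPM per kilobase. Ryr3, the minor ryanodine receptor gene of adult fast muscle, was the lowest member at 0.316 CPM per kilobase. Neighbours in this order such as Ryr1, Jph2 and Stac3 overlapped in their ranges over mice.

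**Figure D1:**
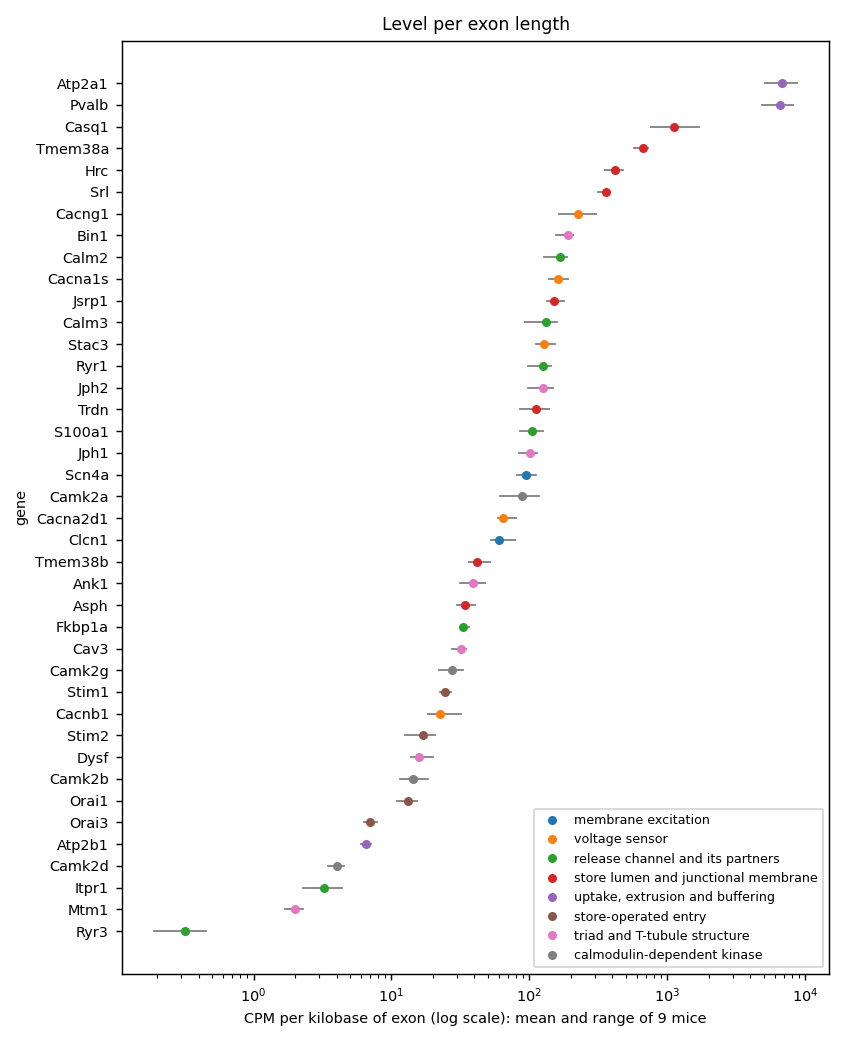
Level of each of the 40 genes in CPM per kilobase of exon on a log axis, as the mean (point) and range (line) of 9 mice, coloured by role. Atp2a1 and Pvalb lead at 6840.4 and 6595 CPM per kilobase, and Ryr3 is lowest at 0.316.

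No calcium handling gene passed the adjusted threshold between any pair of ages. The quasi-likelihood test of edgeR, with Benjamini-Hochberg adjustment over the 13044 genes and a threshold of 0.05, called 0 of 40 at 21 against 6 months, where 0.0153% of all genes were called. It called 0 of 40 at 15 against 6 months (0.00767% of all genes), 0 of 40 at 21 against 15 months (0% of all genes) and 0 of 40 in the F-test over the 3 ages (0% of all genes). DESeq2 also called 0 of 40 in each, with 1.53%, 0.874%, 0.023% and 1.56% of all genes called in the same order. The smallest adjusted p of a member by edgeR was 0.369, 0.380, 0.9999 and 0.517 in that order. At an unadjusted p below 0.05, 2 of 40 stood out at 21 against 6 months (10.6% of all genes), 2 at 15 against 6 months (10.3%), 1 at 21 against 15 months (1.82%) and 1 in the F-test (8.55%). They were Stac3 and Camk2b, Stac3 and S100a1, Dysf, and Stac3 in that order. These shares were near or below those of all genes.

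The interval of each gene shows how large a difference could have been missed. Each interval is for a single gene in a single comparison. It uses TMM scaling and makes no allowance for the number of genes and comparisons. At 21 against 6 months, the 95% interval of the fold change excluded a 1.5-fold difference in either direction for 33 of 40 genes. The same held for 28 of 40 at 15 against 6 months and for 38 of 40 at 21 against 15 months. A 2-fold difference in either direction was excluded for 39, 40 and 40 genes. The exception was Ryr3 at 21 against 6 months, whose interval reached a log2 fold change of 1.115.

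Most members lay somewhat lower in the older mice than at 6 months, by small amounts. At 21 against 6 months, 27 of 40 had a log2 fold change below 0 (52% of all genes), with a median of -0.10 against -0.01 over all genes. At 15 against 6 months, 29 of 40 were below 0 (51.4% of all genes), with a median of -0.11 against -0.01 over all genes. At 21 against 15 months, 10 of 40 were below 0 (50.8% of all genes), with a median of 0.04. The first 2 comparisons share the 6-month mice. The fast fibre markers lay lower too, 8 of 9 in each of these comparisons, with median log2 fold changes of -0.20 and -0.19. Of these 9, 0 passed the adjusted threshold by edgeR. The fast myosin gene Myh4 lay near 0, at -0.03 and -0.09, and Myh1 was the 1 that lay higher, at 0.74 and 1.05. The slow fibre markers lay higher in 10 of 10 in each, with medians of 2.0005 and 2.53. Of these 10, 0 passed the adjusted threshold, with smallest adjusted p by edgeR of 0.356 and 0.315. Wholly above the 6-month mice lay 3 of 10 at 21 months (7.81% of all genes) and 6 of 10 at 15 months (6.64%). These markers differed widely between mice of an age. The part of fibre composition in the members' shift was not tested. Without the 3 libraries set apart, the members' medians were -0.05, -0.02 and 0.00 and the counts below 0 were 24, 24 and 20 of 40. Scaling by total counts gave 22, 22 and 10 of 40 below 0, with medians over all genes of 0.07, 0.07 and 0.00.

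**Figure D2:**
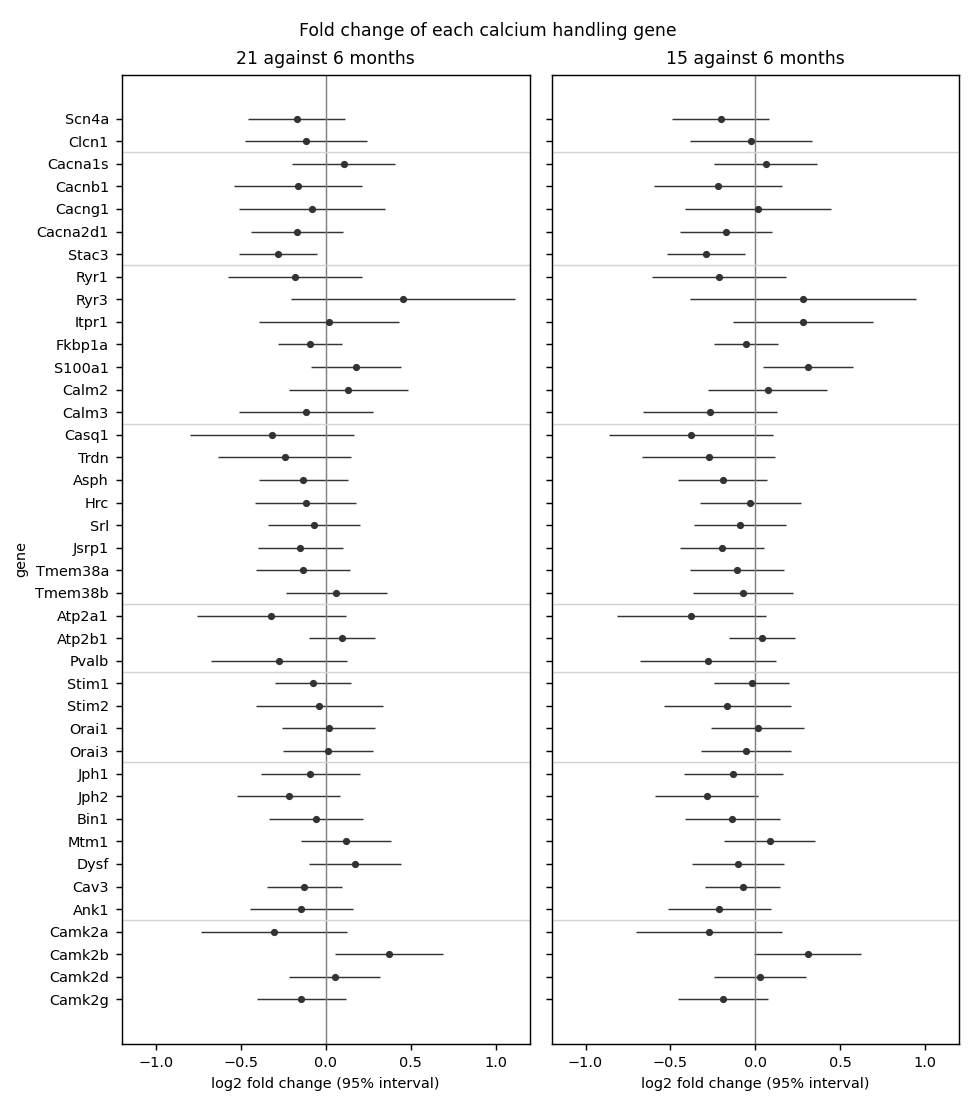
Log2 fold change of each of the 40 genes at 21 against 6 months (left) and 15 against 6 months (right), with its 95% interval from the edgeR fit; grey lines separate the roles. The median lies at -0.10 on the left and -0.11 on the right, and no gene passed the adjusted threshold.

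The members were also shifted by library within an age. The median log2 difference of the 40 genes from their 9-mouse means was 0.00, 0.10 and 0.11 in mice 1 to 3 at 6 months. It was -0.20, -0.03 and 0.10 at 15 months and -0.03, 0.00 and -0.05 at 21 months. Mouse 1 at 15 months held the lowest of the 9 values for 20 of 40 members (13.3% of all genes). Within its age it was lowest for 30 of 40 members (37% of all genes), while mouse 3 at 15 months was highest for 29 of 40 (34.1% of all genes). At 6 months mouse 1 was lowest within its age for 26 of 40 (29.7% of all genes). Mouse 1 at 15 months, mouse 3 at 21 months and mouse 2 at 15 months also had the highest slow fibre sums, at 1303, 1184 and 694 CPM. Mouse 2 at 6 months had the lowest slow fibre sum at 110 CPM and the highest summed level of the 40 members, 60303 CPM. Atp2a1 alone made 30487 CPM of that sum, and by the median difference mouse 3 at 6 months was highest. Mouse 3 at 15 months had a slow fibre sum of 413 CPM, above every 6-month mouse, and a median difference of 0.10. Its fast fibre sum was 165366 CPM. The lowest fast fibre sums were those of mouse 1 at 15 months and mouse 3 at 21 months, 114985 and 125602 CPM. Mice 1 and 3 at 6 months had similar fast fibre sums, 156821 and 156392 CPM, with median differences of 0.00 and 0.11. A relation between these measures was not tested. In bulk muscle, fewer fibres of a type and less RNA per fibre cannot be told apart.

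**Figure D3:**
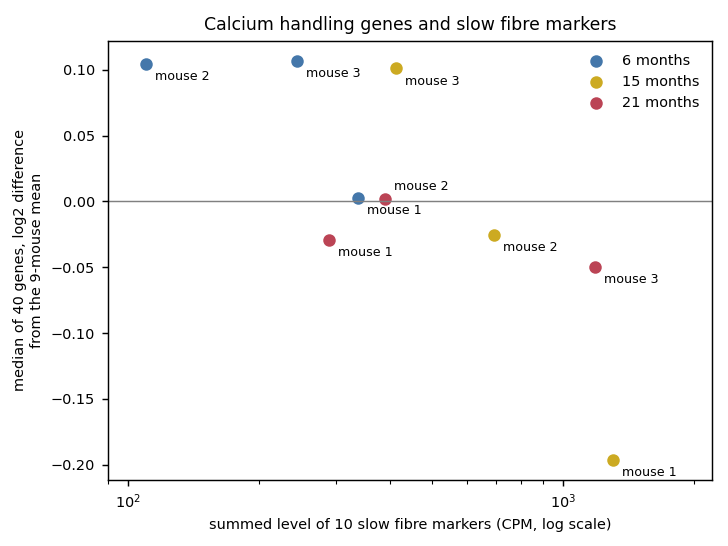
Median log2 difference of the 40 genes from their 9-mouse means (vertical) against the summed level of 10 slow fibre markers in CPM on a log axis (horizontal), 1 point per mouse, coloured by age. Mouse 1 at 15 months lies at -0.20 and 1303 CPM, and mouse 2 at 6 months at 0.10 and 110 CPM. Mouse 3 at 15 months lies at 0.10 and 413 CPM.

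**Figure D4:**
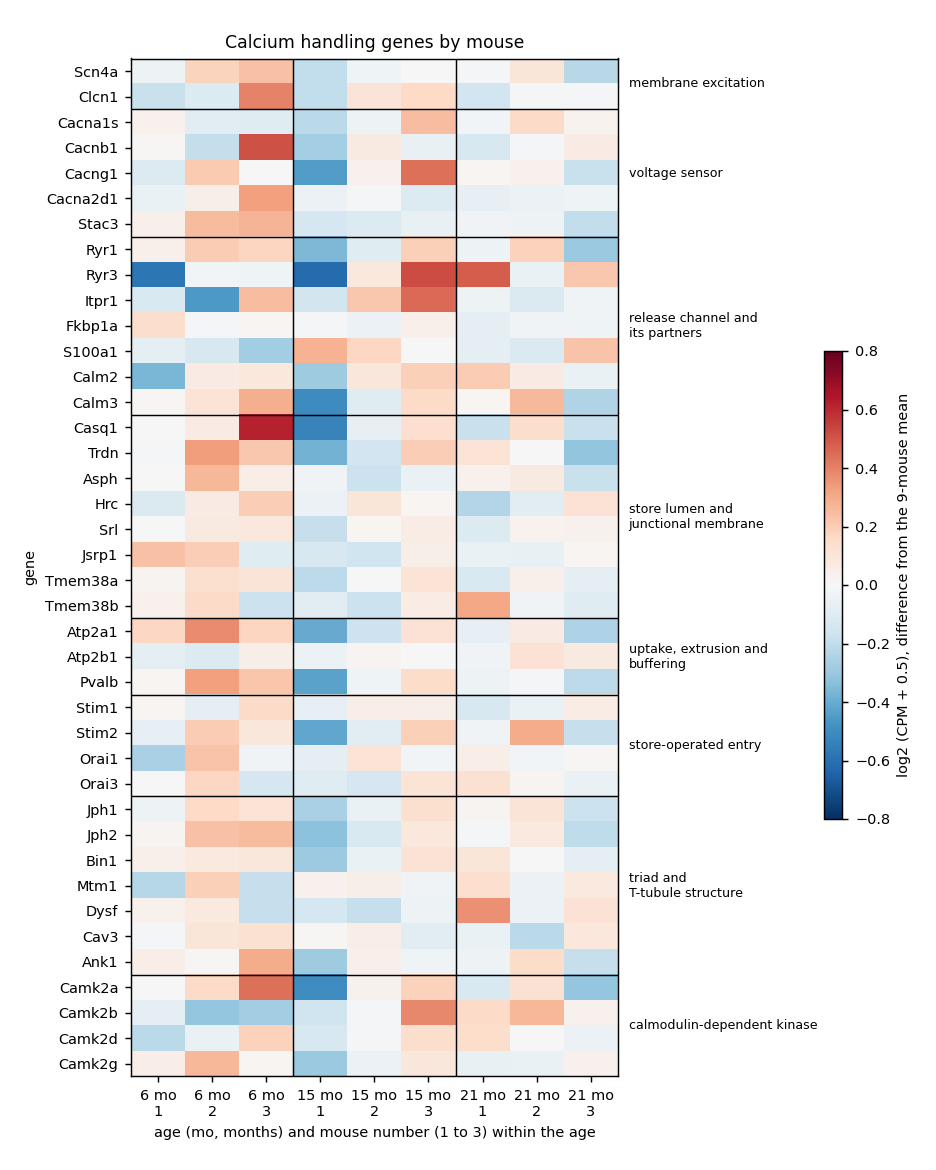
Log2 (CPM + 0.5) of each of the 40 genes in each of 9 mice as the difference from the gene's 9-mouse mean, grouped by role, with the ages in order from 6 to 21 months. The column of mouse 1 at 15 months holds the lowest value for 20 of 40 genes.

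The membrane excitation genes Scn4a and Clcn1 carry the action potential and set the resting conductance of the fibre. Both lay lower at 21 than at 6 months (52% of all genes did), with a median log2 fold change of -0.14 over the pair. Scn4a, which encodes the skeletal muscle sodium channel (Entrez gene 110880, at 106318592 to 106353288 on chromosome 11, on mm10 as are all gene positions here), stood at 645, 753 and 784 CPM at 6 months, 579, 649.5 and 664 CPM at 15 months and 658, 710.4 and 569 CPM at 21 months. The ranges of the 3 ages overlapped. Scn4a had a log2 fold change of -0.17 ± 0.13 (SE, edgeR adjusted p = 0.674) at 21 against 6 months and -0.21 ± 0.13 (adjusted p = 0.618) at 15 against 6 months. Leaving out mouse 3 at 21 months gave -0.09 for the first, and leaving out mouse 3 at 6 months gave -0.11. Clcn1, which encodes the chloride channel that damps repeated firing, had a log2 fold change of -0.12 ± 0.16 (SE, edgeR adjusted p = 0.845) at 21 against 6 months. It was 0.10 without mouse 3 of the 6-month group, which held the highest of the 9 values at 429 CPM.

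Among the 5 voltage sensor genes, 4 lay lower at 21 than at 6 months (52% of all genes) and the median log2 fold change was -0.16. Stac3 encodes the adaptor that brings the voltage sensor to the triad and couples it to the release channel. Stac3 (Entrez gene 237611, at 127501686 to 127508823 on chromosome 10) stood at 334, 389 and 393 CPM at 6 months, 296, 302 and 312 CPM at 15 months and 319, 317 and 283 CPM at 21 months. Every 15-month and 21-month mouse lay below every 6-month mouse. The 6-month mice averaged 372 ± 33.0 CPM, the 15-month mice 304 ± 7.86 CPM and the 21-month mice 306 ± 20.04 CPM (SD, n = 3 each). Stac3 had a log2 fold change of -0.28 ± 0.10 (SE, edgeR adjusted p = 0.369) at 21 against 6 months and -0.29 ± 0.10 (adjusted p = 0.380) at 15 against 6 months. Neither passed the threshold, although the 95% intervals, -0.51 to -0.05 and -0.52 to -0.06, did not include 0. Stac3 had the smallest adjusted p of the 40 members in both comparisons and in the F-test (0.517). At 21 against 15 months its log2 fold change was 0.01 ± 0.10 (SE).

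Cacna1s, which encodes the voltage-sensing pore subunit of the dihydropyridine receptor, was the only voltage sensor gene with a mean above that of 6 months at 21 months. Cacna1s (Entrez gene 12292, at 136052750 to 136119822 on chromosome 1) stood at 1076, 991 and 984 CPM at 6 months, 908, 1024 and 1248 CPM at 15 months and 1038, 1169.7 and 1074 CPM at 21 months. The ages overlapped, and the 15-month mice spread over the whole range of the other ages. Cacna1s had a log2 fold change of 0.11 ± 0.14 (SE, edgeR adjusted p = 0.835) at 21 against 6 months and 0.06 ± 0.14 (adjusted p = 0.905) at 15 against 6 months. Exons of the antisense gene Gm37759 share 1309 bases, 19.98% of the exon bases of Cacna1s. The sources used here do not say whether counting used the strand, so reads of such stretches cannot be assigned to either gene. The accessory subunit genes Cacnb1, Cacng1 and Cacna2d1 had log2 fold changes of -0.16, -0.08 and -0.17 at 21 against 6 months, with standard errors of 0.17, 0.19 and 0.12.

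The 7 release channel genes were split, with 3 lower and 4 higher at 21 than at 6 months and a median log2 fold change of 0.02. Ryr1, which encodes the calcium release channel of skeletal muscle (Entrez gene 20190, at 29003344 to 29125179 on chromosome 7), stood at 2800.3, 3138 and 3069.8 CPM at 6 months. It stood at 2124, 2544 and 3109 CPM at 15 months and at 2644, 3099.8 and 2214 CPM at 21 months. Mouse 1 at 15 months and mouse 3 at 21 months were low, and the ages overlapped. Ryr1 had a log2 fold change of -0.18 ± 0.18 (SE, edgeR adjusted p = 0.760) at 21 against 6 months and -0.21 ± 0.18 (adjusted p = 0.716) at 15 against 6 months. The first was -0.06 without mouse 3 and -0.31 without mouse 2 at 21 months, and the second -0.09 without mouse 1 and -0.36 without mouse 3 at 15 months. Ryr3 stood at 3.71, 5.70 and 5.64 CPM at 6 months, 3.60, 6.16 and 8.53 CPM at 15 months and 8.29, 5.55 and 6.79 CPM at 21 months. Its values overlapped between ages and varied more within an age than those of any other member, with a within-age SD of 0.41 on the log2 scale. Ryr3 had a log2 fold change of 0.45 ± 0.30 (SE, edgeR adjusted p = 0.620) at 21 against 6 months. Leaving out mouse 1 at 6 months gave 0.28, and leaving out mouse 1 at 21 months gave 0.298.

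S100a1 encodes a calcium sensor that binds the ryanodine receptor. S100a1 (Entrez gene 20193, at 90511034 to 90514392 on chromosome 3) stood at 68.0, 65.6 and 59.0 CPM at 6 months, 87.0, 80.3 and 71.6 CPM at 15 months and 68.2, 65.98 and 83.9 CPM at 21 months. Every 15-month mouse lay above every 6-month mouse, and the 21-month mice overlapped both. S100a1 had a log2 fold change of 0.31 ± 0.12 (SE, edgeR adjusted p = 0.406) at 15 against 6 months and 0.18 ± 0.12 (adjusted p = 0.627) at 21 against 6 months. Between 21 and 15 months it was -0.13 ± 0.12 (SE). The value at 21 against 6 months was 0.06 without mouse 3 at 21 months. Itpr1, which encodes an inositol trisphosphate receptor, stood at 53.5, 42.1 and 69.0 CPM at 6 months, 52.4, 67.5 and 79.9 CPM at 15 months and 56.5, 53.6 and 57.0 CPM at 21 months. The 21-month mice lay within the spread of the others, and the log2 fold change at 21 against 15 months was -0.26 ± 0.19 (SE, edgeR adjusted p = 0.9999). It was -0.40 without mouse 1 and -0.11 without mouse 3 at 15 months.

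Fkbp1a encodes the immunophilin that binds and steadies the release channel. It stood at 140.2, 125 and 129 CPM at 6 months, 126, 123 and 131 CPM at 15 months and 121, 125 and 124 CPM at 21 months. The 21-month mice lay just below the 6-month mice. Fkbp1a had a log2 fold change of -0.09 ± 0.08 (SE, edgeR adjusted p = 0.739), and it had the smallest within-age SD of the 40 members, 0.056 on the log2 scale. Calm3, 1 of 2 calmodulin genes among the members, stood at 319.8, 342 and 387 CPM at 6 months, 224, 296 and 352 CPM at 15 months and 321, 380.0 and 268 CPM at 21 months. Mouse 1 at 15 months was low and the ages overlapped. Calm3 at 21 against 15 months had a log2 fold change of 0.15 ± 0.18 (SE, edgeR adjusted p = 0.9999), and it was -0.01 without that mouse. Calm2, the other member of this kind, had a log2 fold change of 0.13 ± 0.16 (SE) at 21 against 6 months. The calmodulin genes encode the same protein, so reads from their coding parts may be shared between them.

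The 8 genes of the store lumen and junctional membrane lay mostly lower in the older mice, and none passed the adjusted threshold. At 15 against 6 months 8 of 8 lay lower (51.4% of all genes), with a median log2 fold change of -0.15. At 21 against 6 months 7 of 8 lay lower (52% of all genes), with a median of -0.13. The smallest adjusted p by edgeR among the 8 was 0.581 and 0.636 in the same order. Casq1 (Entrez gene 12372, at 172209894 to 172219868 on chromosome 1) stood at 2157, 2250.2 and 3297 CPM at 6 months, 1485, 2059.8 and 2369 CPM at 15 months and 1903, 2374 and 1905 CPM at 21 months. Mouse 3 at 6 months was far above the rest and mouse 1 at 15 months was lowest, and the ages overlapped. Casq1 had a log2 fold change of -0.32 ± 0.22 (SE, edgeR adjusted p = 0.636) at 21 against 6 months and -0.38 ± 0.22 (adjusted p = 0.581) at 15 against 6 months. Without mouse 3 at 6 months it was -0.09 and -0.15 in the same order. Casq1 had the lowest log2 fold change of the 40 members at 15 against 6 months, and its interval of -0.86 to 0.10 included 0.

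Trdn, which encodes the junctional protein triadin, had a log2 fold change of -0.24 ± 0.18 (SE, edgeR adjusted p = 0.666) at 21 against 6 months. Asph, whose products include junctin and junctate, stood at 546, 654 and 566 CPM at 6 months and 535, 484 and 525 CPM at 15 months. Every 15-month mouse lay below every 6-month mouse, and the log2 fold change was -0.19 ± 0.12 (SE, edgeR adjusted p = 0.606) and -0.11 without mouse 2 at 6 months. Exons of Clvs1 on the opposite strand share 2302 bases, 14.3% of the exon bases of Asph. Hrc and Srl, which encode calcium-binding proteins of the reticulum, had log2 fold changes of -0.12 and -0.07 at 21 against 6 months, with standard errors of 0.13 and 0.12. Jsrp1, which encodes a junctional membrane protein that binds the voltage sensor, had a log2 fold change of -0.15 ± 0.11 (SE), and Tmem38a of -0.13 ± 0.12 (SE). Tmem38b, the sister of Tmem38a, stood at 162, 176 and 140.1 CPM at 6 months, 149, 140.4 and 165 CPM at 15 months and 196, 155 and 148 CPM at 21 months. Mouse 1 at 21 months was highest and the ages overlapped. Tmem38b had a log2 fold change of 0.06 ± 0.13 (SE, edgeR adjusted p = 0.910) at 21 against 6 months. Against 15 months that of the 21-month mice was 0.14 ± 0.13 (SE), and without mouse 1 at 21 months these values were -0.07 and 0.0004.

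Of the 3 uptake and buffering genes, Atp2a1 and Pvalb lay lower in the older mice and Atp2b1 did not. Atp2a1 (Entrez gene 11937, at 126445858 to 126463108 on chromosome 7) stood at 26333, 30487 and 26410.2 CPM at 6 months. It stood at 17743, 20973 and 25399.8 CPM at 15 months and at 22411, 24537 and 19763 CPM at 21 months. Every older mouse lay below every 6-month mouse, while the 15-month and 21-month mice overlapped. The lowest mouse of each older group was the one with the highest slow fibre sum of its age, namely mouse 1 at 15 months and mouse 3 at 21 months. Mouse 1 at 21 months had the lowest slow fibre sum of its age, 290 CPM, and less Atp2a1 than mouse 2, whose sum was 390 CPM. A relation of Atp2a1 to the slow fibre markers was not tested. The 6-month mice averaged 27743 ± 2377 CPM, the 15-month mice 21372 ± 3844 CPM and the 21-month mice 22237 ± 2392 CPM (SD, n = 3 each). Atp2a1 had a log2 fold change of -0.32 ± 0.20 (SE, edgeR adjusted p = 0.598) at 21 against 6 months and -0.38 ± 0.20 (adjusted p = 0.547) at 15 against 6 months, and neither passed. Without the 3 libraries set apart, mouse 1 at 15 months, mouse 3 at 21 months and mouse 2 at 6 months, the values were -0.17 and -0.19. Rabep2 on the opposite strand shares 763 exon bases, 21.9% of those of Atp2a1. Smaller parts overlap opposite-strand genes in other members, among them Ryr3 (916 bases, Aven), Ryr1 (864, Gm26604), Ank1 (862, Gm15816) and Clcn1 (445, Fam131b). Further examples are Dysf (352, Gm15475), Bin1 (256, A830052D11Rik) and Casq1 (156, Gm17224). Tmem38b shares 119 bases, 3.13% of its exon bases, with the ribosomal RNA gene n-R5s185 on the same strand.

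Pvalb (Entrez gene 19293, at 78191114 to 78206400 on chromosome 15) stood at 6865, 8524 and 7929.9 CPM at 6 months, 5055, 6624 and 7525 CPM at 15 months and 6611, 6763 and 5887 CPM at 21 months. The 21-month mice lay below the 6-month mice, and the 15-month mice overlapped both. Pvalb had a log2 fold change of -0.28 ± 0.18 (SE, edgeR adjusted p = 0.620) at 21 against 6 months, and -0.15 without the 3 libraries set apart. Atp2b1, which encodes a calcium pump of the plasma membrane, had a log2 fold change of 0.10 ± 0.09 (SE, edgeR adjusted p = 0.738) at 21 against 6 months.

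**Figure D5:**
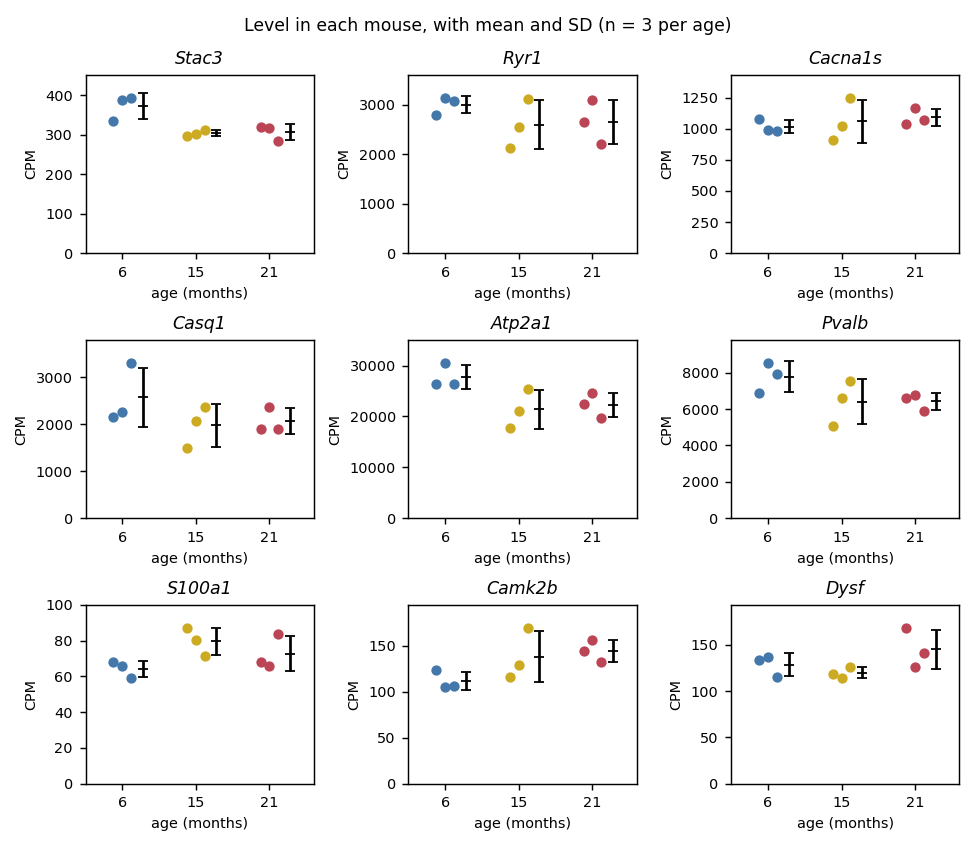
CPM of 9 calcium handling genes in each mouse at 6, 15 and 21 months (points, 3 per age), with the mean and SD beside them on axes that start at 0. The older mice lie below the 6-month mice for Stac3 and Atp2a1, and the ages overlap for Ryr1, Cacna1s and Casq1.

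Counted over the 40 members, the shares of groups that did not overlap were close to or below those over all genes. At 21 against 6 months 4 members lay wholly lower (8.31% of all genes), namely Stac3, Fkbp1a, Atp2a1 and Pvalb, and 1 wholly higher (7.81%), namely Camk2b. At 15 against 6 months 3 lay wholly lower (7.14%), namely Stac3, Asph and Atp2a1, and 1 wholly higher (6.64%), namely S100a1. In the last comparison, 21 against 15 months, 0 lay wholly lower (3.3%) and 0 wholly higher (2.84%). Fkbp1a, Pvalb and Asph are named here after their values were seen.

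The 4 store-operated entry genes had log2 fold changes near 0 at 21 against 6 months, from -0.07 to 0.02 with a median of -0.01. Stim1, which encodes the calcium sensor of the reticulum that opens ORAI channels (Entrez gene 20866, at 102267806 to 102437319 on chromosome 7), stood at 257, 242 and 282 CPM at 6 months, 243, 264 and 262 CPM at 15 months and 233, 245 and 265 CPM at 21 months. The 3 ages overlapped closely. Stim1 had a log2 fold change of -0.07 ± 0.10 (SE, edgeR adjusted p = 0.844) at 21 against 6 months and -0.02 ± 0.10 (adjusted p = 0.954) at 15 against 6 months, and with total count scaling these were 0.01 and 0.05. The interval of the first, -0.30 to 0.15, lies within a 1.5-fold difference either way. Orai1, which encodes the pore of the entry channel, had a log2 fold change of 0.02 ± 0.12 (SE, edgeR adjusted p = 0.977) at 21 against 6 months. Stim2 had a log2 fold change of -0.04 ± 0.17 (SE) and Orai3 of 0.01 ± 0.12 (SE). That of Orai1 ranged from -0.10 to 0.15 when single libraries were left out.

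Of the 7 triad and T-tubule genes, 5 lay lower at 21 than at 6 months (52% of all genes) and the median log2 fold change was -0.09. Jph2 encodes junctophilin 2, which ties the reticulum to the T-tubule. Jph2 (Entrez gene 59091, at 163336242 to 163397993 on chromosome 2) stood at 535, 619.9 and 627 CPM at 6 months, 419, 483 and 558 CPM at 15 months and 522, 555 and 457 CPM at 21 months. The older mice were mostly lower, with an overlap between each older group and mouse 1 at 6 months. Jph2 had a log2 fold change of -0.22 ± 0.14 (SE, edgeR adjusted p = 0.606) at 21 against 6 months and -0.29 ± 0.14 (adjusted p = 0.505) at 15 against 6 months. Leaving out mouse 3 at 21 months gave -0.14 for the first, and leaving out mouse 1 at 15 months gave -0.19 for the second. Bin1, which encodes the amphiphysin that shapes T-tubules (Entrez gene 30948, at 32377230 to 32435737 on chromosome 18), stood at 806, 828 and 834 CPM at 6 months, 642, 756 and 849 CPM at 15 months and 839, 784 and 747 CPM at 21 months. The 6-month mice were close together and lay inside the range of the older ones. Bin1 had a log2 fold change of -0.06 ± 0.12 (SE, edgeR adjusted p = 0.909) at 21 against 6 months, which total count scaling turned to 0.02.

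Dysf encodes dysferlin, a calcium-dependent membrane repair protein that also lies at T-tubules. Dysf (Entrez gene 26903, at 84008590 to 84211060 on chromosome 6) stood at 134, 137 and 115 CPM at 6 months, 118, 115 and 127 CPM at 15 months and 168, 126 and 142 CPM at 21 months. Mouse 1 at 21 months was the highest of the 9, and mouse 2 at 21 months lay just below the highest 15-month mouse. Dysf had a log2 fold change of 0.28 ± 0.12 (SE, edgeR adjusted p = 0.9999) at 21 against 15 months, the only member of 40 with an unadjusted p below 0.05 there. At 21 against 6 months it was 0.17 ± 0.12 (SE, edgeR adjusted p = 0.644). Without mouse 1 at 21 months these values were 0.16 and 0.06. Mtm1, which encodes the lipid phosphatase myotubularin, had a log2 fold change of 0.12 ± 0.12 (SE) at 21 against 6 months, and Cav3, which encodes the muscle caveolin, of -0.12 ± 0.10 (SE). Jph1, the other junctophilin gene among the members, had a log2 fold change of -0.09 ± 0.13 (SE), and Ank1, whose small muscle isoforms anchor the reticulum to the sarcomere, of -0.14 ± 0.14 (SE).

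The 4 genes of calmodulin-dependent kinase 2, which reads calcium signals in the fibre, were split, with 2 lower and 2 higher at 21 than at 6 months. Camk2b (Entrez gene 12323, at 5969644 to 6066362 on chromosome 11) stood at 123, 105 and 107 CPM at 6 months, 116, 129 and 169 CPM at 15 months and 144, 156 and 133 CPM at 21 months. Every 21-month mouse lay above every 6-month mouse, and mouse 3 at 15 months was the highest of the 9. Camk2b had a log2 fold change of 0.37 ± 0.14 (SE, edgeR adjusted p = 0.384) at 21 against 6 months, with an interval of 0.06 to 0.69, and 0.31 ± 0.14 (adjusted p = 0.497) at 15 against 6 months. The second was 0.13 without mouse 3 at 15 months. Camk2a (Entrez gene 12322, at 60925618 to 60988152 on chromosome 18) stood at 647, 720.3 and 876 CPM at 6 months, 458, 662 and 734 CPM at 15 months and 593, 703 and 520.5 CPM at 21 months. Mouse 3 at 6 months was highest and mouse 1 at 15 months lowest, and the ages overlapped. Camk2a had a log2 fold change of -0.30 ± 0.19 (SE, edgeR adjusted p = 0.612) at 21 against 6 months and -0.28 ± 0.19 (adjusted p = 0.656) at 15 against 6 months. Without mouse 3 at 6 months these were -0.17 and -0.14, and the second was -0.10 without mouse 1 and -0.42 without mouse 3 at 15 months. Camk2d and Camk2g had log2 fold changes of 0.05 ± 0.12 (SE) and -0.14 ± 0.12 (SE) at 21 against 6 months.

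Per exon length, the ratio of Camk2a to Camk2b was 6.42, 8.39 and 10.03 at 6 months, 4.82, 6.28 and 5.30 at 15 months and 5.02, 5.51 and 4.79 at 21 months. The older mice lay below the 6-month mice in this ratio, which was chosen with the values of both genes known and was not tested. The ratio of Ryr1 to Cacna1s was 0.781, 0.950 and 0.936 at 6 months, 0.702, 0.745 and 0.747 at 15 months and 0.764, 0.795 and 0.619 at 21 months. Here the 15-month mice lay below the 6-month mice, and mouse 2 at 21 months lay inside the 6-month range.

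Other genes of the pathway, 61 that are not members, included slow fibre and regulatory pump genes, further channels, calcineurin genes and mitochondrial calcium uptake genes. None of the 61 passed the adjusted threshold by edgeR in any of the 3 comparisons or in the F-test. At 21 against 6 months 18 of 61 had an unadjusted p below 0.05, 6 lower and 12 higher (10.6% of all genes), and DESeq2 called 3 (1.53% of all genes). Those 3 were Sln, Kcnj11 and Capn3. At 15 against 6 months 14 had an unadjusted p below 0.05 (10.3% of all genes) and DESeq2 called 1 (0.874%), which was Capn3. At 21 against 15 months these counts were 1 (1.82%), which was Sln, and 0 (0.023%). In the F-test 9 had an unadjusted p below 0.05 (8.55%) and DESeq2 called 3 (1.56%), again Sln, Kcnj11 and Capn3.

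Sln encodes sarcolipin, a small inhibitor of the SERCA pump. It stood at 0.880, 1.502 and 0.552 CPM at 6 months, 2.11, 1.11 and 1.45 CPM at 15 months and 4.51, 4.36 and 2.90 CPM at 21 months. Every 21-month mouse lay above every younger mouse. Sln had a log2 fold change of 1.998 ± 0.37 (SE, edgeR adjusted p = 0.0796) at 21 against 6 months, which passed with DESeq2 (adjusted p = 0.000323) and not with edgeR. Kcnj11, which encodes the pore of the ATP-sensitive potassium channel, stood at 132, 149 and 144 CPM at 6 months, 106, 102 and 125 CPM at 15 months and 99.6, 112 and 101 CPM at 21 months. The older mice all lay below the 6-month mice. Kcnj11 had a log2 fold change of -0.44 ± 0.11 (SE) at 21 against 6 months, for which edgeR gave an adjusted p = 0.161 and DESeq2 0.0188.

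Capn3 encodes calpain 3, a calcium-activated muscle protease found at the triad and the sarcomere. It stood at 248, 278 and 257 CPM at 6 months, 215, 203 and 211 CPM at 15 months and 208, 197 and 206 CPM at 21 months. Again every older mouse lay below every 6-month mouse. Capn3 had a log2 fold change of -0.36 ± 0.09 (SE) at 21 against 6 months, for which edgeR gave an adjusted p = 0.180 and DESeq2 0.00619. Cacna1h, which encodes a T-type calcium channel, had a log2 fold change of 0.68 ± 0.19 (SE, edgeR adjusted p = 0.244).

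The slow fibre isoforms of the pump and the store protein both stand on the list of slow fibre markers. Their own levels are therefore part of the slow fibre sums. A relation to the other markers on that list was not tested. Atp2a2, which encodes the SERCA pump of slow and cardiac muscle, stood at 68.8, 53.2 and 78.5 CPM at 6 months, 241, 159.6 and 99.7 CPM at 15 months and 83.4, 112 and 212 CPM at 21 months. The older mice all lay above the 6-month mice, with the highest values in mouse 1 at 15 months and mouse 3 at 21 months. Atp2a2 had a log2 fold change of 1.02 ± 0.37 (SE, edgeR adjusted p = 0.356) at 21 against 6 months. It was 0.55 without mouse 3 at 21 months and 0.41 without the 3 libraries set apart. Casq2, which encodes the slow and cardiac calsequestrin, stood at 33.2, 15.5 and 27.96 CPM at 6 months, 87.7, 48.4 and 25.5 CPM at 15 months and 40.5, 40.7 and 72.0 CPM at 21 months. The 21-month mice lay above the 6-month mice, and the log2 fold change was 0.998 ± 0.42 (SE, edgeR adjusted p = 0.438) and 0.41 without the 3 libraries set apart. Per exon length, the ratio of Atp2a1 to Atp2a2 was 669, 1002 and 589 at 6 months, 129, 229.8 and 446 at 15 months and 470.2, 383 and 163 at 21 months. Atp2a1 was far above Atp2a2 in every mouse, and the older mice lay below the 6-month mice in this ratio, which was not tested.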

How the data were processed

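Per the labels' protocols, TRIzol was used for the RNA, mRNA was enriched on oligo(dT) beads and sequencing used DNA nanoballs. The authors deposited 1 table of estimated counts per gene, given by Entrez ID and symbol, for 9 libraries; 90.0 to 90.7% of a library's values were whole numbers (tolerance 0.005). Per the submitters' processing notes the genome was mm10; the aligner, counter, annotation and strand setting were not given in the sources used here. Each column name carries a sample's life stage and number, and 0 columns were of other samples. The design text speaks of 3 mice per age.

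Estimated counts were rounded, filtered with filterByExpr (minimum count 10) and scaled with TMM. All 9 libraries entered 1 quasi-likelihood fit with age as the factor (edgeR 4.0.16, R 4.3.3), with 6 residual and 4.24 prior degrees of freedom, and p-values were adjusted over 13044 genes by Benjamini-Hochberg at 0.05. Fold changes are older against younger. Total counts of 15354396 to 17317856 leave counting error on low genes beside the spread between mice. Exon lengths and overlaps come from GENCODE on GRCm38. The procedure was run on simulated data with planted fold changes, and its recovery of these is not reported here.

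Members and lists were chosen with earlier results of these data known. The text names the 5 members with the smallest p in each comparison, the most abundant member (by mean CPM) of each role, examples with the largest and smallest fold change of a role, and, outside the members, up to 5 pathway genes by F-test p below 0.05 plus Sln, Atp2a2 and Casq2. Further members are named to complete their role. Alternatives were DESeq2 1.42.0, RLE scaling, other filters, a replicate block, only the 2 ages compared, limma 3.58.1 voom with quality weights, and omission of each library in turn. After seeing the data, total count scaling and omission of 3 libraries together were added.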

Additional observations from a re-analysis of the deposited data

How the results depend on the processing

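Under every alternative run, 0 of 40 members passed the adjusted threshold in each comparison and in the F-test. The smallest adjusted p of a member ranged from 0.201 to 0.632 at 21 against 6 months, 0.196 to 0.795 at 15 against 6 months, 0.665 to 0.99999 at 21 against 15 months and 0.188 to 0.821 in the F-test. The members' median log2 fold change ran from -0.15 to -0.02, from -0.17 to -0.02 and from -0.04 to 0.11 in the 3 comparisons. Without mouse 1 at 15 months it was -0.04 at 15 against 6 months and -0.04 at 21 against 15 months, and without mouse 3 at 6 months it was -0.04 at 21 against 6 months.

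The count over all genes moved more. At 21 against 6 months it was 2 with edgeR, 200 with DESeq2, 30 with no filter, 59 with voom, 1 with total count scaling and 0 to 42 when single libraries were left out. At 15 against 6 months it was 1, 114 with DESeq2, and 0 with the filter of 5 CPM in 3 libraries, with only the 2 ages or with total count scaling, and 0 to 10 when single libraries were left out. At 21 against 15 months it was 0, and 3 with DESeq2. In the F-test it was 0, against 204 with DESeq2, 5 with no filter, 3 with voom and 0 to 10 when single libraries were left out. The cause was not tested.

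No pairing of the samples by replicate number was seen. Of 9 same-numbered pairs 2 correlated above 0.1 in their deviations, with a range of -0.47 to 0.43. Pairs with different numbers ranged from -0.40 to 0.44. These few correlations cannot decide whether mice with the same number shared a batch. With the replicate block the counts over all genes were 5, 0, 0 and 5 in the order above, and 0 members were called.

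Of 791 values of named genes under the alternatives, 774 kept direction and side of the threshold, 4 passed it and 13 changed sign. Total count scaling turned Stim1 to 0.0057 at 21 and to 0.048 at 15 against 6 months and Bin1 to 0.023 at 21 against 6 months, and voom turned Stim1 to 0.0058 at 15 against 6 months. Leaving out single libraries gave -0.22 to 0.10 for Clcn1, -0.073 to 0.14 for Tmem38b and -0.10 to 0.15 for Orai1 at 21 against 6 months. It gave -0.074 to 0.16 for Cacna1s and -0.074 to 0.048 for Stim1 at 15 against 6 months, and -0.0062 to 0.31 for Calm3 at 21 against 15 months. The cause was not tested. Sln was not tested under the filter of 5 CPM.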
